A study of Mus musculus with 6 samples.

Results

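The nuclear-encoded subunits of respiratory complexes II, III, IV and V, together with cytochrome c, were examined in CD27SP NK cells from the BM. The members were the protein-coding genes Sdha, Sdhb, Sdhc, Sdhd, Cyc1 and Cycs and all symbols that start with Uqcr, Cox4, Cox5, Cox6, Cox7, Cox8 or Atp5, and 1 gene with a matching symbol was left out by the rule. This gave 48 of the 25690 gene symbols in the tables, with 4 in complex II, 9 in complex III, 1 for cytochrome c, 17 in complex IV and 17 in complex V. A total of 44 had enough counts to be tested, and the other members, Cox4i2, Cox7b2, Cox8b and Cox8c, lay near 0 in all 6 libraries. The rule used gene names and no measured value.

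RNA was sequenced from sorted NK1.1+CD27+CD11b− cells, an immature NK subset from the BM, in 3 samples from Ncr1cre Myc wt/wt mice (controls, or wt/wt) and 3 from Ncr1cre Myc fl/fl mice (fl/fl), on a C57BL/6 background and numbered 1, 2 and 4 in each genotype. Both genotypes carry the Cre recombinase driven from Ncr1, the gene of the receptor NKp46, so that Myc is deleted only in cells of the fl/fl genotype that have begun to express this receptor. Nothing in the labels says whether a library came from 1 mouse or from several, and p-values measure only the spread between these libraries. The question here was how the subunit genes of the later respiratory complexes stood in cells in which Myc had been deleted.

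Complexes II, III and IV pass electrons from succinate and ubiquinol to oxygen, and cytochrome c carries them from complex III to complex IV. Complexes III and IV pump protons across the inner mitochondrial membrane, and complex V, the ATP synthase, lets them flow back and makes ATP. Complex II is built from nuclear genes alone, whereas complexes III, IV and V each also contain subunits made from mitochondrial DNA. The transcription factors NRF1, GABP (an ETS factor) and YY1 are known regulators of these nuclear genes, and MYC with its partner MAX binds the E-box CACGTG.

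Promoter windows from 250 bases before to 50 bases after the transcription start were found for 37 of the 48 members in RefSeq (GRCm38.p6). The others were Sdhc, Cyc1, Uqcrb, Uqcrc2, Uqcrq, Cox4i1, Cox4i2, Cox6c, Cox8c, Atp5a1 and Atp5mpl. Windows were searched on both strands for CACGTG (the E-box), GCATGCGC (the NRF1 core), CCGGAAG (the ETS core) and AAGATGGC (the YY1 core). These 37 members had 40 windows, and a member was counted when any window of it held the motif, whereas the windows of all genes were counted singly. The E-box was held by 4 of the 37 members (10.8%), against 7.15% of all 32851 windows. All of these belonged to complex V, namely Atp5f1, Atp5g1, Atp5g3 and Atp5l, which is 4 of 15 members of that complex with a window and 0 of the 22 others. The 4 E-box windows are shown because they carry the letters that MYC and MAX recognise, with the E-box in capitals and each on the minus strand, 5′ to 3′. The sequence of Atp5g3 spans chr2:73911327-73911576, that of Atp5l chr9:44920743-44920992 and that of Atp5g1 chr11:96075641-96075881, and each begins 250 bases before the start. For Atp5f1 only chr3:105959484-105959513 is given, since its whole window lies in annotated exons. The 250 bases of Atp5g3 lie outside all annotated exons, 9 bases of the Atp5l sequence overlap an exon of the neighbour Gm30934, and the last 30 bases of the Atp5g1 sequence lie in its own first exon.
Atp5g3: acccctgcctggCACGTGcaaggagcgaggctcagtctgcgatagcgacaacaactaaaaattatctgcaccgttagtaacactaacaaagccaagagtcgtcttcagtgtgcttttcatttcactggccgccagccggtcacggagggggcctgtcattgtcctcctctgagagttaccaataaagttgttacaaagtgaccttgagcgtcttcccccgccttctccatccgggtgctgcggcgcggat
Atp5l: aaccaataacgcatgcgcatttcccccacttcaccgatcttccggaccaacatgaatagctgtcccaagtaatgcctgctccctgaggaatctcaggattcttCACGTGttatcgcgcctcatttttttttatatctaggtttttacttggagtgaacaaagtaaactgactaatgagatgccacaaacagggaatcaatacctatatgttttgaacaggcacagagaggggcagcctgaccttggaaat
Atp5g1: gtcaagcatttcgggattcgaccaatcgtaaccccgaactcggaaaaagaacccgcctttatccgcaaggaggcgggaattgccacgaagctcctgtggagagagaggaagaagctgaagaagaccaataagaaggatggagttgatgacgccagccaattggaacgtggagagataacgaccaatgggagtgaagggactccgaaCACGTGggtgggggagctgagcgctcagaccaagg
Atp5f1: aCACGTGgtgtacctctgcgcaaccgcccc

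The first base of the E-box lay at −238 in Atp5g3, −147 in Atp5l, −44 in Atp5g1 and −249 in Atp5f1, counted from the start. A stretch of 30 bases of the Atp5g2 promoter, chr15:102671070-102671099 on the minus strand, is shown because Atp5g2 was 1 of the 2 members past the test. All 30 bases lie in an annotated exon of Atp5g2. It holds the NRF1 core on both strands, and the capitals mark the stretch that the overlapping matches cover.
Atp5g2: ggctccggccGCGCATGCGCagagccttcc

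The NRF1 core was held by 8 members (21.6%, against 2.71% of all windows), the ETS core by 12 (32.4%, against 8.86%) and the YY1 core by 3 (8.11%, against 2.75%). No motif of these was found for 18 members (48.6%, against 80.9% of all windows), among them Uqcr10, the member with the smallest adjusted p. The median log2 fold change was −0.27 for the 4 members with an E-box and −0.26 for the members with a window but no E-box. A match is only a match of letters, and binding was not measured.

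Myc itself, which checks the labels, stood at 200.5, 183.4 and 164.3 CPM (counts scaled to the TMM-normalized library size) in wt/wt libraries 1, 2 and 4 and at 61.5, 64.6 and 76.5 in the fl/fl libraries. Its log2 fold change was −1.44 (edgeR, adjusted p = 0.00189). The total of estimated counts lay between 8101219 and 64962491 per library, and the lowest belonged to wt/wt library 1, which also stood apart in the members. Over the 42 members above 10 CPM, the median distance of this library from the other two of its genotype was 0.28 on the log2 scale, against 0.094 to 0.22 for the other 5 libraries. In this library, the deviation went with transcript length, with a Spearman correlation of 0.53 across the 42 genes, which are not independent replicates. The 21 members with the shorter main transcript, up to 722.5 bases, had a median deviation of −0.40, and the 21 longer ones of 0.044. In wt/wt library 4 the same correlation was −0.50, and in wt/wt library 2 it was −0.36. The means that libraries 2 and 4 were set against include library 1, so these correlations are not independent of that of library 1. Values without wt/wt library 1, or without both libraries numbered 1, are given beside the results that moved most.

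**Figure D1:**
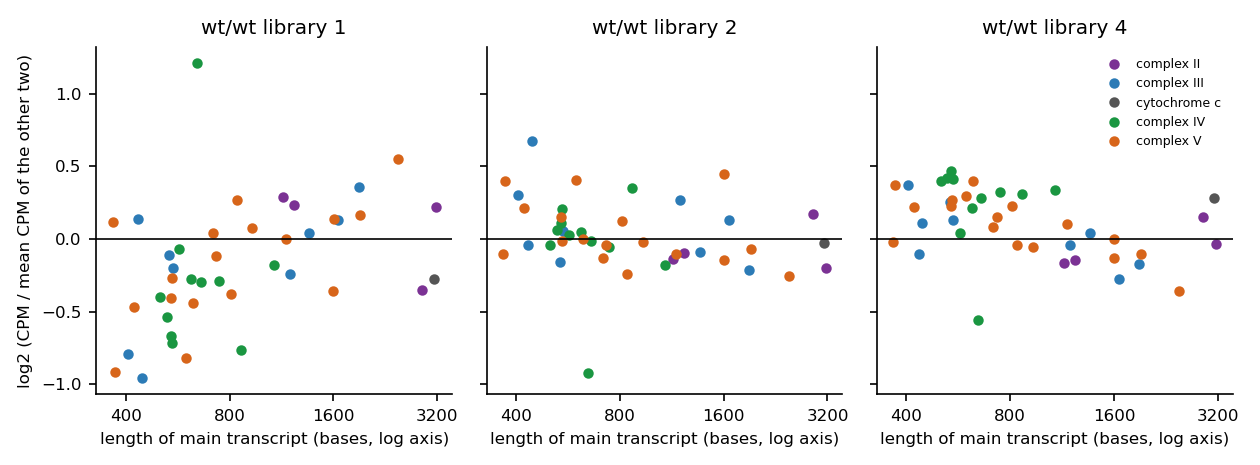
Each point is a member above 10 CPM, with the length of its main transcript in bases (log axis) against the log2 ratio of its CPM in that wt/wt library to the mean CPM of the other 2 libraries of this genotype. Short transcripts sat low in library 1 (Spearman correlation 0.53) and high in library 4 (−0.50), where the mean used includes library 1. The single point far above the rest in library 1 is Cox5a.

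The members were lower, by a small amount, in fl/fl CD27SP NK cells. Of all estimated counts, the members held 0.955%, 1.02% and 1.04% in the wt/wt libraries and 0.826%, 0.882% and 0.807% in the fl/fl libraries. The means were 1.01% ± 0.045 and 0.838% ± 0.0386 (SD, n = 3 each), so that the fl/fl share was 83.3% of the control share. The 2 genotypes did not overlap, and the 95% Wilson interval of a share, which covers counting error only, ran from 0.949% to 0.962% in the shallowest library. On the TPM scale, which divides by transcript length, the fl/fl share was 88.0% of the control. There the genotypes overlapped, with 1.94%, 2.23% and 2.25% in the controls and 1.88%, 1.95% and 1.83% in the fl/fl libraries. Such shares are relative to all RNA of a sample, and fewer cells of a type and less RNA per cell cannot be told apart in bulk samples.

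A total of 37 of the 44 tested members (84.1%) had a log2 fold change below 0, which held for 48.5% of the 15474 genes tested. The count was 39, 36 and 34 when replicate 1, 2 or 4 was left out. Their median log2 fold change was −0.25, against 0.014 over all genes tested. The libraries of both genotypes did not overlap, with fl/fl lower, for 21 members (47.7%, against 15.1% of all genes). The opposite separation was found for 1 member, Uqcrc1, against 16.2% of all genes. Without wt/wt library 1, 34 members were separated and lower, against 22.3% of all genes.

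Few single members passed a test. At an adjusted p below 0.05 (edgeR's quasi-likelihood test, Benjamini-Hochberg over all genes), 2 members fell, Uqcr10 and Atp5g2, against 3.38% of all genes, and 0 rose, against 4.45%. At an adjusted p below 0.01 and a log2 fold change of 0.5 or more in size, 0 members fell and 0 rose by edgeR, against 0.872% and 1.28% of all genes. At an unadjusted p below 0.05, 15 members were lower and 0 higher, against 10.2% and 12.4% of all genes. By the stricter rule, DESeq2 called Uqcr10 and Atp5g2 as lower, against 3.92% of all genes, and limma-trend called 0 members, against 0.504%. The edgeR test called Uqcr10 without the replicate block, against 1.19% of all genes, and without a filter on low counts, against 1.83%. It called Atp5e without wt/wt library 1 and the block, against 0.814%. The number of calls depended on the fit. Without the replicate block, 6 members fell at an adjusted p below 0.05, against 4.47% of all genes, and DESeq2 called 8, against 6.43%. When wt/wt library 1 was left out of the fit without the block, 7 were called, against 3.87% of all genes. When both libraries of any 1 replicate number were left out of the fit with the block, 1 member was called each time, namely Atp5e without replicate 1, Cox5a without replicate 2 and Uqcr10 without replicate 4, against 1.69%, 1.9% and 2.61% of all genes.

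**Figure D2:**
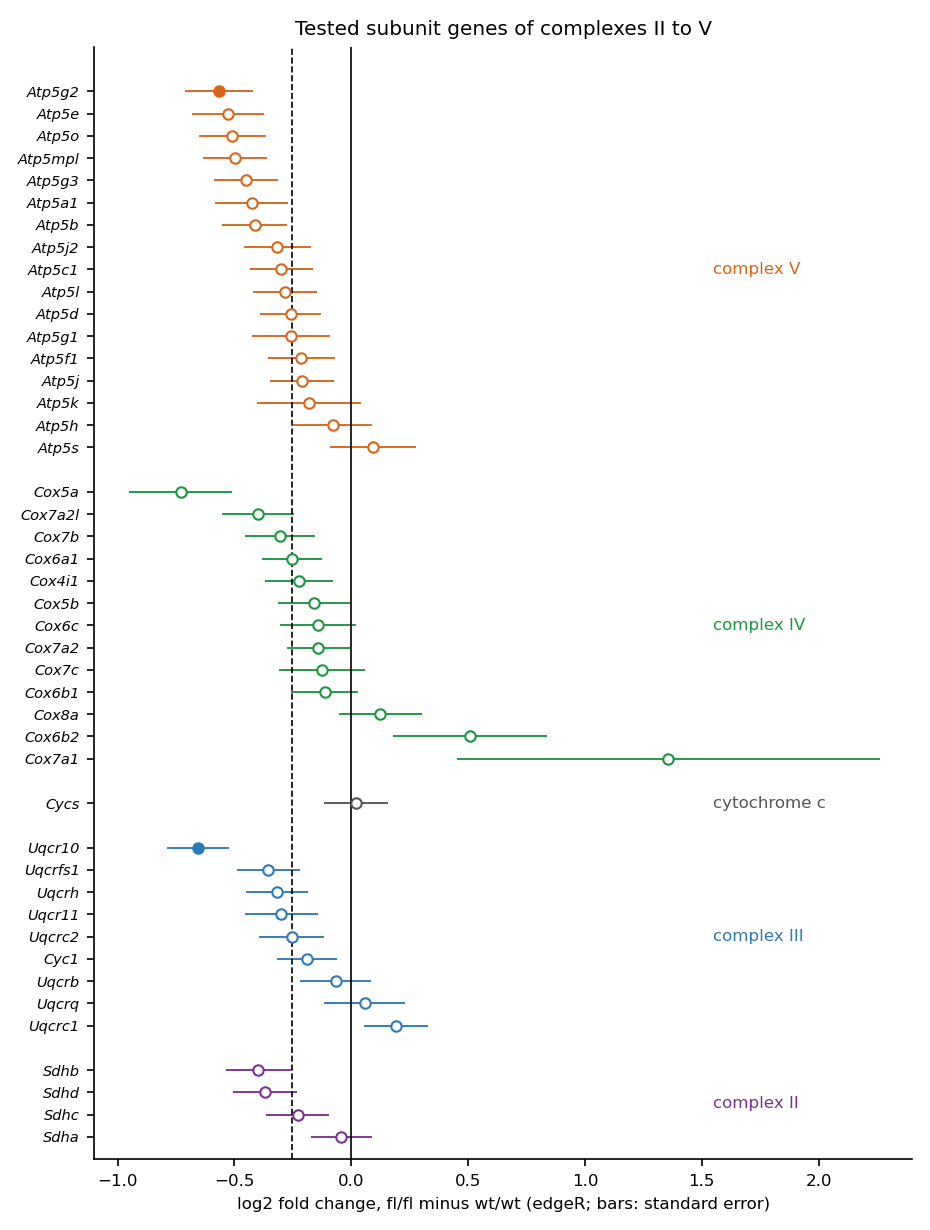
Log2 fold changes (fl/fl minus wt/wt, edgeR) of the 44 tested members by complex, with standard errors as bars. Filled points, Uqcr10 and Atp5g2, had an adjusted p below 0.05, the solid line marks 0 and the dashed line the median of the members, −0.25. Most points lie left of 0, and 3 of complex IV, 2 of complex III, 1 of complex V and cytochrome c lie right of it.

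Complex II, succinate dehydrogenase, is also an enzyme of the TCA cycle. All 4 of its genes had log2 fold changes below 0, with a median of −0.30, and 3 were separated and lower (15.1% of all genes were). The complex held 0.105% ± 0.00356 of the counts in wt/wt and 0.0913% ± 0.00363 in fl/fl (SD, n = 3 each), and no gene of it passed the test. Sdhb, the iron-sulfur subunit and the complex II gene with the highest level per length (344 TPM over all libraries), stood at 302, 249 and 246 CPM in the controls and at 195, 214 and 194 CPM in the fl/fl libraries. Its log2 fold change was −0.40 ± 0.14 (SE, adjusted p = 0.121). Library 1 was the highest control, but the other two also lay above every fl/fl library.

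Sdhd, a membrane anchor of complex II that helps bind ubiquinone, read 239, 206 and 201 CPM in the controls and 158, 176 and 163 CPM in the fl/fl libraries, with a log2 fold change of −0.37 ± 0.14 (SE, adjusted p = 0.144). Sdhc, the other anchor, read 153, 126 and 136 CPM and 121, 123 and 109 CPM, with a log2 fold change of −0.23, or −0.38 with offsets from effective lengths. Both anchors were thus separated between the genotypes, Sdhc by a narrow gap. For Sdha, the catalytic flavoprotein, the values of 373, 477 and 473 CPM in the controls overlapped the 388, 433 and 457 CPM of the fl/fl libraries. The log2 fold change of Sdha was −0.043 ± 0.13 (SE), and its low control value was that of library 1. Without that library all 4 genes of the complex were separated and lower, and Sdha had a log2 fold change of −0.17 in the fit without it and without the block. The main transcript of Sdha had 2900 bases, against 1142 for Sdhb and 1231 for Sdhd.

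Complex III takes electrons from ubiquinol and hands them to cytochrome c. Of its 9 genes, 7 had a log2 fold change below 0, with a median of −0.25, and 4 were separated and lower, or 6 without wt/wt library 1 (15.1% and 22.3% of all genes). Uqcr10, a small accessory subunit, fell in the fl/fl cells. The gene lies at chr11:4701973-4704342 on the minus strand (GRCm38). Its levels were 136, 125 and 122 CPM in the controls and 78.3, 83.1 and 81.3 CPM in the fl/fl libraries. The 2 genotypes were far apart relative to their spread, with a log2 fold change of −0.66 ± 0.13 (SE, adjusted p = 0.0178). Its adjusted p was 0.0702 without replicate 1 and 0.0512 without replicate 2, at log2 fold changes of −0.59 and −0.68. Per length, Uqcr10 stood at 553 TPM over all libraries, the highest mean of the complex. In the fl/fl libraries alone it stood at 450 TPM, below Uqcrb, Uqcrq and Uqcr11.

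Uqcrfs1, the Rieske iron-sulfur protein, read 133, 125 and 133 CPM in the controls and 98.6, 109 and 97.2 CPM in the fl/fl libraries, with a log2 fold change of −0.35 ± 0.13 (SE, adjusted p = 0.147). Its genotypes did not overlap. Cyc1, which encodes the haem protein cytochrome c1, read 177, 224 and 194 CPM in the controls and 154, 195 and 172 CPM in the fl/fl libraries, and the genotypes overlapped. Its log2 fold change was −0.19.

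Uqcrc1 was the only gene of complex III that was separated and higher. This core protein, one of a pair that faces the matrix, read 342, 341 and 283 CPM in the controls and 355, 369 and 375 CPM in the fl/fl libraries. All 3 fl/fl values lay above the controls, but the log2 fold change of 0.19 ± 0.14 (SE) did not pass the test (adjusted p = 0.47) and was 0.064 without replicate 4. Its partner Uqcrc2 had a log2 fold change of −0.25, or −0.15 without replicate 1, and was separated in the lower direction. The remaining small subunits, Uqcrh, Uqcr11, Uqcrb and Uqcrq, ranged from −0.32 for Uqcrh to 0.058 for Uqcrq. Uqcr11 and Uqcrq have short transcripts and their lowest control value, 73.0 and 63.4 CPM, was in each case that of library 1, against 159 and 125 CPM and 108 and 111 CPM in libraries 2 and 4. The log2 fold change of Uqcr11 was −0.30, and −0.44 without replicate 1, −0.096 without replicate 2 and −0.37 without replicate 4. That of Uqcrq, 0.058 over all libraries, was −0.19, 0.18 and 0.18 in the same order.

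Cycs, cytochrome c, had a log2 fold change near 0, as did Sdha (−0.043), Uqcrb (−0.067) and Uqcrq (0.058). Cycs read 125, 140 and 161 CPM in the controls and 128, 159 and 144 CPM in the fl/fl libraries, with a log2 fold change of 0.020 ± 0.14 (SE, adjusted p = 0.96). The interval of 1 SE on either side thus covers both signs, and the sign turned when replicate 2 was left out. With offsets from effective lengths the log2 fold change was 0.20, and on the TPM scale the fl/fl level was 119.8% of the control.

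Complex IV, cytochrome c oxidase, reduces oxygen. Its nuclear subunits surround a core made from mitochondrial DNA, and several have isoforms used in heart, muscle, lung or testis. The complex held 0.194%, 0.227% and 0.25% of the counts in the controls and 0.195%, 0.199% and 0.184% in the fl/fl libraries, so the genotypes overlapped through control library 1. Of the 13 tested genes, 10 had a log2 fold change below 0, with a median of −0.14, and 3 were separated and lower. The median was −0.32 without replicate 1 and −0.075 without replicate 4, and 10 genes were separated and lower without wt/wt library 1. Over all genes these shares were 15.1% with that library and 22.3% without it. With all libraries, the block and the default filter, no gene of complex IV passed the edgeR test.

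Cox5a, a matrix-side subunit, had the lowest log2 fold change of the members and a wide spread among its controls. It read 392.5, 153 and 186 CPM in the controls and 141, 134 and 128 CPM in the fl/fl libraries. Control library 1 was thus above every other value, while libraries 2 and 4 also lay above the fl/fl libraries. The log2 fold change of −0.73 ± 0.22 (SE, adjusted p = 0.0771) became −0.36 without replicate 1, −0.99 without replicate 2 and −0.85 without replicate 4. Cox5a was called without replicate 2 (edgeR adjusted p = 0.0323), without a filter on low counts (0.0149) and by DESeq2 (0.0201). Cox5b, its zinc-binding counterpart, read 140, 239 and 235 CPM and 161, 182 and 193 CPM, with library 1 the lowest control here, and a log2 fold change of −0.16. That value was −0.34 without replicate 1 and −0.030 without replicate 2.

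Cox4i1, the ubiquitous isoform of a regulatory subunit, read 258, 289 and 342 CPM in the controls and 261, 255 and 242 CPM in the fl/fl libraries, with a log2 fold change of −0.22 ± 0.15 (SE). The genotypes overlapped only through library 1, and the log2 fold change was −0.34 without replicate 1 and −0.10 without replicate 4. Cox6a1, the member of complex IV with the highest level per length over all libraries (1084 TPM, with Cox8a higher in the fl/fl libraries alone), read 295, 309 and 310 CPM in the controls and 250, 269 and 248 CPM in the fl/fl libraries, and the genotypes did not overlap. Its log2 fold change was −0.25 ± 0.13 (SE, adjusted p = 0.286). Cox7a2l had a log2 fold change of −0.40, or −0.24 without replicate 4, and was also separated. Cox8a read 170, 267 and 291 CPM and 264, 268 and 244 CPM, and control library 1 was the lowest value. The log2 fold change of Cox8a, 0.12, was −0.13, 0.19 and 0.30 without replicate 1, 2 or 4. Cox7b, Cox6c, Cox7a2, Cox7c and Cox6b1, small subunits of the shell, had log2 fold changes from −0.31 for Cox7b to −0.11 for Cox6b1, and the genotypes overlapped for each. Without replicate 1 these ran from −0.40 for Cox7b to −0.20 for Cox7a2, with Cox7c at −0.39, Cox6c at −0.32 and Cox6b1 at −0.23. Without replicate 4 they were −0.16 for Cox7b, −0.075 for Cox7a2, 0.079 for Cox7c, 0.037 for Cox6c and −0.010 for Cox6b1.

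The isoforms of other tissues were low in both genotypes. Cox4i2 (lung), Cox7b2 and Cox8c (testis) and Cox8b (heart and muscle) were at most at 0.0915 CPM in any library, and Cox8c was at 0 throughout. Cox6b2, a testis isoform, read 1.82, 3.28 and 2.72 CPM in the controls and 4.05, 3.27 and 3.90 CPM in the fl/fl libraries, with a log2 fold change of 0.51 (adjusted p = 0.414), which was 0.26, 0.81 and 0.49 without replicate 1, 2 or 4. Cox7a1, a heart and muscle isoform, was below 1 CPM in every library. Its log2 fold change of 1.36 ± 0.90 (SE) had the highest value of the members and did not pass the test (adjusted p = 0.43). It was 0.93, 3.01 and 0.49 without replicate 1, 2 or 4. The genotypes overlapped for both of these low genes.

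**Figure D3:**
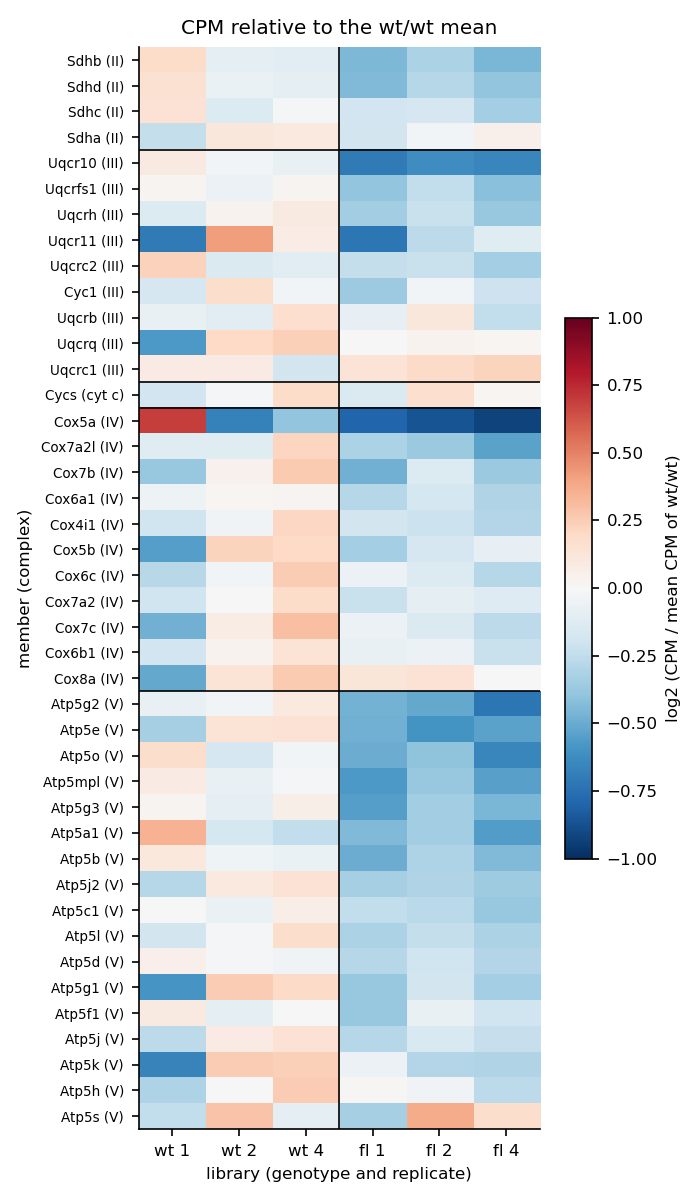
Log2 ratio of CPM in each library to the mean of the wt/wt libraries, for the 42 members above 10 CPM, by complex (rows) and library (columns). Blue, lower values fill most of the 3 fl/fl columns in complex V, whereas in complex IV the control column 1 is itself blue for most rows other than Cox5a.

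Of the 17 genes of complex V, 11 were separated and lower, against 15.1% of all genes, and 1 passed the test. Without wt/wt library 1, 14 were separated and lower, against 22.3% of all genes, and the counts were then 4 of 4 in complex II, 6 of 9 in complex III and 10 of 13 in complex IV. The ATP synthase held 0.517%, 0.519% and 0.524% of all counts in the controls and 0.404%, 0.434% and 0.39% in the fl/fl libraries, 78.7% of the control mean, and the controls spread very little. Leaving out control library 1 gave 78.5%. By the same measure, the share was 86.7% of the control in complex II, 91.2% in complex III, 86.1% in complex IV and 101.9% for cytochrome c. Without control library 1 these were 85.1%, 87.5%, 80.7% and 94.3%. Whether the complexes differed from each other was not tested. A total of 16 of its genes had a log2 fold change below 0, with a median of −0.30.

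**Figure D4:**
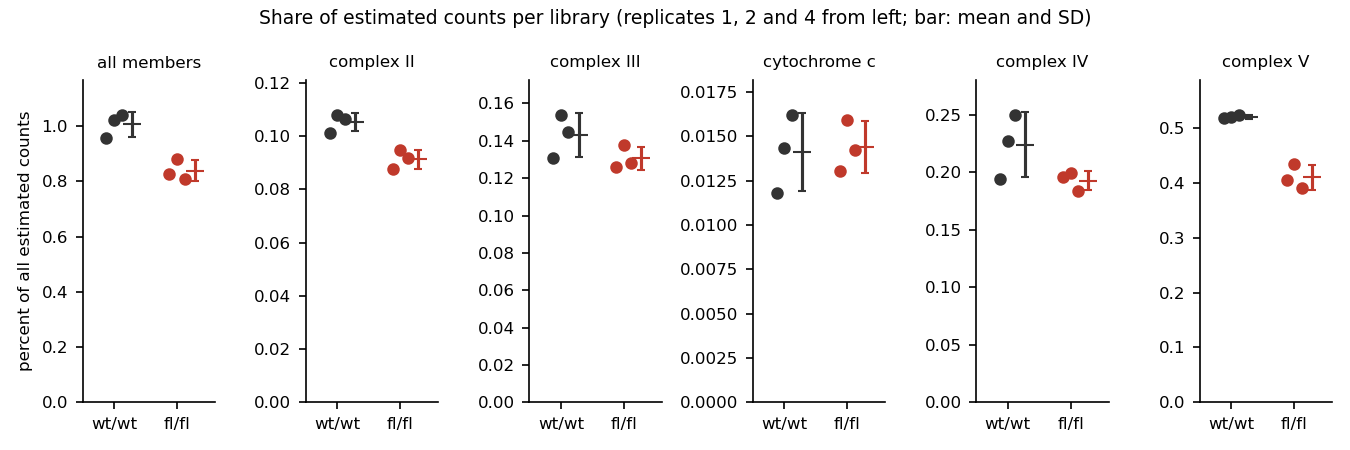
Percent of all estimated counts held by all members and by each complex, for each library (points, replicates 1, 2 and 4 from left), with the mean and SD of each genotype beside them and axes from 0. The genotypes are apart for all members and for complexes II and V, overlap for complexes III and IV through control library 1, and overlap for cytochrome c.

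The soluble F1 head of ATP synthase makes the ATP. The 5 genes of its alpha to epsilon subunits, Atp5a1, Atp5b, Atp5c1, Atp5d and Atp5e, all had log2 fold changes below 0 and all were separated between the genotypes, against 15.1% of all genes, with a median of −0.41. Atp5b, the catalytic beta subunit, had the highest level per length of all 48 members over all libraries, with 1188 TPM, although in the fl/fl libraries alone Cox8a (1144 TPM) lay above it (1054 TPM). It read 1522, 1367 and 1347 CPM in the controls and 1003, 1138 and 1041 CPM in the fl/fl libraries. The log2 fold change of Atp5b was −0.41 ± 0.14 (SE, adjusted p = 0.105), and it was called by DESeq2 (adjusted p = 0.0353).

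Atp5a1, the alpha subunit that alternates with beta in the head, read 1279, 893 and 849 CPM in the controls and 740, 789 and 682 CPM in the fl/fl libraries. Library 1 was again the highest control, and the log2 fold change moved from −0.43 to −0.25 without replicate 1. Atp5c1, the gamma subunit that forms the rotating shaft, read 303, 289 and 318 CPM and 256, 252 and 233 CPM, with a log2 fold change of −0.30 ± 0.13 (SE, adjusted p = 0.219). Atp5e, the epsilon subunit at the foot of this shaft, read 79.8, 110.3 and 110.6 CPM and 72.0, 66.1 and 69.0 CPM, with a log2 fold change of −0.53 (adjusted p = 0.0703). It was the member called when replicate 1 was left out.

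The membrane rotor is a ring of subunit c, and the genes Atp5g1, Atp5g2 and Atp5g3 encode the same mature peptide behind different import sequences. All of these genes had log2 fold changes below 0. Atp5g2, at chr15:102662864-102672352 on the minus strand, fell in the fl/fl cells. It read 68.3, 70.7 and 77.2 CPM in the controls and 52.0, 50.7 and 43.7 CPM in the fl/fl libraries, with a log2 fold change of −0.57 ± 0.14 (SE, adjusted p = 0.0436). Its adjusted p rose to 0.0738, 0.0949 and 0.249 when replicate 1, 2 or 4 was left out, at log2 fold changes of −0.65, −0.60 and −0.46. With only control library 1 left out, and no block, it was 0.0271. It was 0.0556 by limma-trend, 0.0672 with library size only and 0.108 with offsets from effective lengths.

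Atp5g3 supplied most of the subunit c transcripts, with 631 TPM over all libraries against 430 for Atp5g1 and 163 for Atp5g2. It read 314, 289 and 320 CPM in the controls and 211, 242 and 224 CPM in the fl/fl libraries, without overlap, at a log2 fold change of −0.45 ± 0.14 (SE, adjusted p = 0.0779). Atp5g1 read 102, 184 and 176 CPM and 118, 136 and 122 CPM, and its genotypes overlapped only through control library 1. Its log2 fold change was −0.26, and −0.49, −0.15 and −0.14 without replicate 1, 2 or 4. Atp5g1 was called without control library 1 and the block (−0.54, edgeR adjusted p = 0.0221), as was Atp5g3 (0.042). Their promoters, shown above, held an E-box in Atp5g3 and Atp5g1 and the NRF1 core in Atp5g2. The annotation holds 8 pseudogenes named after members, none of which is in the tables, so reads from such copies could not be told apart from those of the genes.

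**Figure D5:**
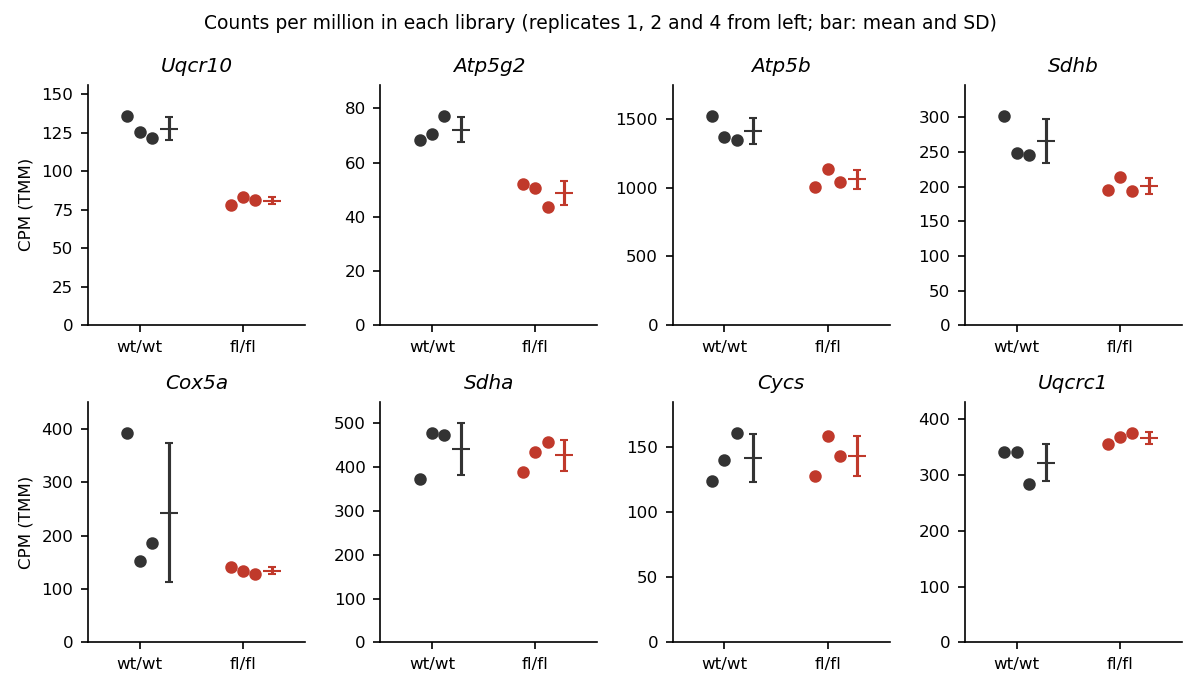
CPM of 8 members in each library (points, replicates 1, 2 and 4 from left), with the mean and SD of each genotype beside them and axes from 0. Uqcr10, Atp5g2, Atp5b and Sdhb are lower in all 3 fl/fl libraries, Cox5a has a single high control, Sdha and Cycs overlap, and Uqcrc1 is higher in the fl/fl libraries.

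Among the stalk and membrane subunits of ATP synthase, Atp5o, which joins the stalk to the head, read 229, 181 and 199 CPM in the controls and 144, 154 and 129 CPM in the fl/fl libraries (log2 fold change −0.51, adjusted p = 0.061). Atp5mpl, a small proteolipid of the membrane part, read 121, 109 and 113 CPM and 76.9, 88.0 and 78.4 CPM (log2 fold change −0.50, adjusted p = 0.0567). Both were separated between the genotypes and both were called without the replicate block. Atp5j2 and Atp5l, subunits f and g of the membrane part, had log2 fold changes of −0.32 and −0.28 and were separated as well. The delta subunit gene Atp5d, of the head, was at −0.26, and Atp5k, subunit e, was at −0.18 and overlapped, with −0.54 without replicate 1 and 0.023 without replicate 2. The stalk subunits Atp5f1, Atp5j and Atp5h had values of −0.21, −0.21 and −0.080 and overlapped. Without replicate 1 these were −0.090, −0.31 and −0.28, Atp5f1 was at −0.33 without replicate 2 and Atp5h was at 0.12 without replicate 4. Atp5s, a coupling factor of low level (32.5 TPM), was the only gene of complex V above 0, with 14.4, 20.8 and 16.1 CPM in the controls and 13.6, 22.1 and 19.4 CPM in the fl/fl libraries and a log2 fold change of 0.094, which was 0.18 without replicate 1 and −0.014 without replicate 4.

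The spread between same-numbered libraries was wide. The median log2 ratio of the members was −0.12 between the libraries numbered 1, −0.20 between those numbered 2 and −0.37 between those numbered 4, and 29, 38 and 40 of the 44 members were lower. For complex V these medians were −0.25, −0.24 and −0.50, and for complex IV 0.11, −0.18 and −0.36. Complex IV thus had a median above 0 in the comparison that uses control library 1. The members' log2 fold changes did not follow transcript length over all libraries (Spearman correlation 0.092 across 42 members), but did so when replicate 1 was left out (0.57), with medians of −0.37 for the 21 shorter and −0.26 for the 21 longer transcripts.

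Complex I, the NADH dehydrogenase that feeds ubiquinone upstream of complex III, was set beside the members. Of 37 nuclear subunits tested, 36 had log2 fold changes below 0, with a median of −0.24, and 15 were separated and lower (15.1% of all genes), but 0 passed an adjusted p of 0.05 by edgeR (3.38% of all genes were called lower), while 7 were lower at an unadjusted p below 0.05 (10.2% of all genes). Without replicate 2, 1 of them was called. The values ranged from −0.59 for Ndufa13 to 0.017 for Ndufv3. The median of the members, −0.25, was thus close to that of complex I.

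The partner subunits made from mitochondrial DNA were all lower. The 6 genes for complexes III, IV and V had a median log2 fold change of −0.52, and all 6 were separated between the genotypes, against 15.1% of all genes. The median was −0.54, −0.68 and −0.32 without replicate 1, 2 or 4. mt-Co1, the catalytic subunit of complex IV, fell, with 3521, 3245 and 4267 CPM in the controls and 1940, 2726 and 2269 CPM in the fl/fl libraries (log2 fold change −0.67, edgeR adjusted p = 0.0374). The adjusted p of mt-Co1 was 0.114 without replicate 1 and 0.198 without replicate 4, and 0 genes of this list were called then, against 2 without replicate 2. The smallest difference was that of mt-Cytb of complex III, at −0.38. All mitochondrially encoded genes together held 1.35% ± 0.232 of the counts in the controls and 0.93% ± 0.148 in the fl/fl libraries (SD, n = 3 each).

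Of 38 assembly factors of complexes II to V tested, 29 had log2 fold changes below 0, with a median of −0.20, or −0.13 without replicate 4, and 8 were separated and lower (15.1% of all genes). With all libraries 0 passed an adjusted p of 0.05 by edgeR, against 3.38% of all genes, and without replicate 1 it was 1. At an unadjusted p below 0.05, 6 were lower, against 10.2% of all genes. The range ran from −0.68 for Sdhaf3, which helps to mature Sdhb, to 0.15 for Coa5. Of 13 regulators of respiratory gene transcription tested, 10 had log2 fold changes below 0 and 3 fell at an adjusted p below 0.05, against 3.38% of all genes. These were Myc itself, the deleted gene, and the PGC-1 family coactivators Ppargc1b and Pprc1. Ppargc1b read 7.41, 8.44 and 6.95 CPM in the controls and 3.52, 3.48 and 3.78 CPM in the fl/fl libraries (log2 fold change −1.08, edgeR adjusted p = 0.0334). Pprc1 read 48.5, 43.2 and 32.9 CPM and 25.5, 19.1 and 28.3 CPM (log2 fold change −0.77, edgeR adjusted p = 0.0473). The adjusted p of Ppargc1b was 0.0811, 0.177 and 0.0703 without replicate 1, 2 or 4, and that of Pprc1 was 0.176, 0.19 and 0.0128. Nrf1, Gabpa and Yy1, whose motifs were counted in the promoters, had log2 fold changes of 0.064, 0.16 and −0.13, and that of Gabpa was the highest of the list.

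The labelled cell type was checked with NK markers. Their summed level was 15097 to 15653 CPM in the controls and 17442 to 19202 CPM in the fl/fl libraries, and 9 of 12 had log2 fold changes above 0. The values ran from −0.64 to 1.73. At an adjusted p below 0.05 by edgeR, 1 NK marker rose and 0 fell, against 4.45% and 3.38% of all genes. A total of 4 were separated and higher and 1 separated and lower, against 16.2% and 15.1% of all genes. Without replicate 2, 2 rose, and without replicate 4, 1 rose and 1 fell. Markers of several other BM cells also differed between the genotypes, alongside the members. All 9 erythroid markers rose at an adjusted p below 0.05 by edgeR, a rule that called 4.45% of all genes as higher. Their summed level was 44.0 to 280.04 CPM in the controls and 545 to 1151 CPM in fl/fl. So did 9 of 10 basophil and mast cell markers (82.1 to 101.3 against 256 to 523 CPM). The same was found for 7 of 9 markers of granulocyte-monocyte progenitors and neutrophils (86.0 to 141 against 543 to 907 CPM), 4 of 7 of monocytes (1660 to 1868 against 2082 to 2373 CPM) and 4 of 6 of plasmacytoid dendritic cells (312 to 359 against 710 to 873 CPM). Without replicate 1, 4 erythroid markers passed, and with replicate 2 or 4 left out 8 did. Of the granulocyte-monocyte progenitor and neutrophil markers, 5 passed without replicate 1 or 2 and 7 without replicate 4. Of the plasmacytoid dendritic cell markers, 3 passed without replicate 1 or 2 and 4 without replicate 4. The basophil and mast cell count and the monocyte count did not change. Of the 6 T cell markers tested, 0 passed by edgeR. At an unadjusted p below 0.05, 1 was higher and 1 lower, against 12.4% and 10.2% of all genes. Without replicate 4, 1 T cell marker passed as higher. The summed level of the T cell markers was 229 to 478 against 240 to 323 CPM. Fcgr1, a monocyte marker, was at 0 in all 3 controls, and none of the markers of these lists was at 0 in all fl/fl libraries. The part of such cells in the values of the members was not tested.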

How the data were processed

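RNA was sequenced in 6 libraries. The deposited tables hold, per transcript, the authors' estimated count, which is not normalized, their TPM value, which is scaled to length and to the library total, and an effective length. The methods name Salmon and GRCh38, whereas the transcript identifiers are those of mouse and the columns are those of kallisto, so the tool and the reference behind the values are not certain. Which correction underlies the effective lengths is not given in the sources used here.

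Transcripts (100239 of 100583 matched) were assigned to 25690 symbols by GENCODE M21 (GRCm38), and estimated counts were summed and rounded. Genes kept by filterByExpr (15474) were normalized by TMM and compared by edgeR 4.0.16 in R 4.3.3, with replicate number entered as a blocking term, since the study calls its analyses paired. The Benjamini-Hochberg adjustment ran over all genes tested. Standard errors were derived from the F statistic. Alternatives were DESeq2 1.42.0, limma-trend 3.58.1, the largest adjusted p of these tools, other normalizations and filters, offsets from effective lengths, no block, and each replicate left out. The fit without Ncr1cre Myc wt/wt library 1 was chosen after seeing the data. The fit was tested on simulated counts with a single fixed dispersion and known changes. The simulation held no replicate effect and no dependence on transcript length, and its outcome is not given here.

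Same-numbered libraries were checked for pairing by correlating their deviations from the genotype means over 15474 genes, which gave −0.0121, −0.0198 and 0.0505 for replicates 1, 2 and 4, all below 0.1, so that pairing by number is not shown. Replicates of a genotype differed by more than counting noise (chi-square between 39.2 and 99.0 per degree of freedom).

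The members, the lists and the rule for naming genes were chosen with earlier results of these data known. Named with values were members past a threshold, the extremes and the most abundant member of each complex, and all genes of complex II. So were the catalytic and electron-carrying subunits, the subunit c genes and the tissue-restricted isoforms. For complex I, the mitochondrially encoded subunits, assembly factors and regulators, the extremes and those past an adjusted p of 0.05 were named. Cell type markers were given as counts and summed levels, and only Fcgr1 was named. All other members given with a value, such as Uqcr11, Uqcrq, Cox7a2l, Cox8a, Atp5e, Atp5o and Atp5mpl, were named after their values were seen, and the Atp5g2 sequence was chosen then too. Promoter sequences are from RefSeq (GRCm38.p6), and the first transcribed bases of 36 of 40 windows checked matched a transcript start. Results that need an item withheld from this text are not reported here.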

Additional observations from a re-analysis of the deposited data

How the results depend on the processing

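No edgeR fit with the block and its default filter called a member by the stricter rule, but Uqcr10 was called without the replicate block (1 member, with 1.19% of all genes lower by this rule) and without a filter on low counts (1, 1.83%), DESeq2 called 2 (3.92%), and 1, Atp5e, was called without Ncr1cre Myc wt/wt library 1 and the block (0.814%). At an adjusted p below 0.05, where the main fit called 2 (3.38% of all genes were lower), the count was 6 without the replicate block (4.47%), 6 without a filter (3.61%), 8 by DESeq2 (6.43%) and 7 without control library 1 and the block (3.87%). It was 1 by limma-trend (2.97%), with library size only (2.73%) and with effective-length offsets (1.72%). By the largest adjusted p of the tools it was also 1, and the share over all genes was not computed for this rule. With any replicate left out it was 1 as well (1.69% to 2.61%). Since the replicate numbers are not shown to pair the samples, calls that differ under the block are not read as weaker or stronger effects.

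The median of all members and those of complexes II, IV and V moved by less than the spread between same-numbered libraries under every alternative. That of complex III, whose spread was narrow, was −0.23 with at least 10 counts in every library, −0.28 without control library 1 and the block, and −0.26 to −0.19 with a replicate left out. Of 284 values of 22 named members under the alternatives, 263 kept their direction and side of the adjusted p of 0.05. Among these values the sign turned in 5, all of members near 0, namely Atp5s (−0.014 to 0.18 with a replicate left out, −0.023 without control library 1 and the block), Cycs (−0.053 to 0.094 and −0.081, but 0.20 with effective-length offsets) and Sdha (−0.094 to 0.015 with a replicate left out). With a replicate left out, it also turned for other members, namely Uqcrb, Uqcrq, Cox6c, Cox7c, Cox8a, Atp5k and Atp5h. The causes were not tested. Control library 1 had the fewest counts, and what its depth did to these values was not tested.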
